A study of Mus musculus with 12 samples.

Results

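The mRNAs of the calcium/calmodulin-dependent protein kinase II (CaMKII) family and of calmodulin were followed through RNA immunoprecipitation of the m6A reader proteins YTHDF1, YTHDF2 and YTHDF3. The 8 members were taken by gene symbol, with earlier results of these data known. Camk2a, Camk2b, Camk2d and Camk2g encode the α, β, δ and γ kinase subunits. The others are the kinase inhibitor Camk2n1, the calmodulin genes Calm2 and Calm3, and the calmodulin-binding neurogranin, Nrgn. The members are 8 of the 55573 genes in the count table. All 8 were among the 17126 genes that passed the low-count filter of a mean of 10 normalized reads.

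Primary hippocampal neurons of neonatal C57BL/6 mice were kept for 14 days in culture, with no genotype or drug difference between groups. The 12 libraries form 4 groups of 3: total RNA of the lysate, with no antibody (Input), and RNA recovered with an antibody to endogenous YTHDF1 (clone EPR22349-16), YTHDF2 (EPR23544-19) or YTHDF3 (EPR21912-3), called the YTHDF1, YTHDF2 and YTHDF3 RIP, whose values are also given as those with YTHDF1, YTHDF2 or YTHDF3. By the study's methods, wells of a replicate were pooled, and that lysate served the 3 RIPs and 1 common input. In these values, only the YTHDF3 libraries deviated together with the Input library of their number. Enrichment and depletion are set against input, since no control-antibody RIP was used here, and the RIPs are also compared with each other. RNA that sticks to beads cannot be told apart from RNA that the reader held.

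CaMKII is a holoenzyme of many subunits that calcium-loaded calmodulin switches on at synapses, and it then phosphorylates itself and stays active after calcium falls. It is among the most abundant proteins of the postsynaptic density, and Camk2a mRNA is a classic example of an mRNA carried into dendrites. Neurogranin holds calmodulin at low calcium and releases it when calcium rises. N6-methyladenosine (m6A) is an internal mark of mRNA, placed mostly near stop codons and in 3′UTRs, and the 3 cytoplasmic YTHDF proteins bind RNA that carries it.

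The depth ranged from 6020072 reads assigned to genes in the shallowest library, a YTHDF2 RIP, to 38909592 in the deepest, a YTHDF1 RIP. The least counted member in any library was Camk2n1 with 128 reads in the YTHDF2 RIP, so no member's value was limited by a handful of reads. Markers of neurons were detected in every library. The 5 astrocyte markers were all detected too, and their summed level ranged from 289 to 2638 CPM (reads scaled to the library's TMM-corrected depth) in Input, from 299 to 1193 with YTHDF1, from 656 to 1311 with YTHDF2 and from 196 to 1485 with YTHDF3. The 4 interneuron markers summed to between 167 and 574 CPM in Input. Of the oligodendrocyte and microglia lists, 4 of 5 and 1 of 5 markers passed the filter. These are whole cultures, so a smaller number of a cell type and less RNA in each cell cannot be told apart.

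The letters GGACT, the core of the consensus in which m6A is most often placed, were searched on the sense strand of 1 principal transcript per gene (GENCODE M21, GRCm38). Of 13450 such transcripts of tested protein-coding genes, 92.0% held at least 1 match, with a median of 3 matches and of 1.04 per kb. Camk2n1 held 10, Camk2g 5, Camk2a and Camk2b 4 each, Camk2d and Calm3 3 each, Calm2 2 and Nrgn 1. In Camk2n1 9 of the 10 matches lay in its 3′UTR of 3335 bases, and both matches of Calm2 lay in its 3′UTR of 615 bases. The following 25-base windows show the match closest to the stop codon that lies within 1 exon, GGACT in capitals, because the reader proteins are known for binding methylated RNA.
Camk2b (coding, 345 bases before the stop, chr11:5972816-5972840, minus strand): tcaacaatggGGACTttgaggccta
Camk2g (coding, 345 bases before the stop, chr14:20739330-20739354, minus strand): tcaacaatggGGACTttgaggccta
Camk2d (coding, 324 bases before the stop, chr3:126838319-126838343, plus strand): tggaagggatGGACTttcacagatt
Camk2n1 (5′UTR, chr4:138454764-138454788, plus strand): atccgcggcaGGACTggcccgcgcg
Calm2 (3′UTR, 126 bases past the stop, chr17:87433887-87433911, minus strand): atagtaattaGGACTtcattcctcc
Calm3 (coding, 349 bases before the stop, chr7:16917648-16917672, minus strand): aaggagctggGGACTgtgatgagat
The windows of Camk2b and Camk2g were the same 25 letters at the same distance from the stop. Camk2a is not shown, and the match of Nrgn, which is in its coding sequence, has no such window within 1 exon. A match is a description of these letters, and whether any of them was methylated or bound was not measured here.

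The first question was which of these mRNAs each reader's RIP held above or below its input. The members enriched were kinase mRNAs, and those depleted were Calm2, Calm3 and Nrgn. In the YTHDF1 RIP, 2 members were enriched (Camk2d and Camk2g) and 3 were depleted (Calm2, Calm3 and Nrgn), where 27.2% of all tested genes were enriched and 25.8% depleted. In the YTHDF2 RIP, Camk2g was the 1 enriched member and the same 3 were depleted, against a background of 15.7% and 19.0%. In the YTHDF3 RIP, Camk2g was enriched and Calm3 and Nrgn were depleted, against 16.4% and 23.0%. The enriched shares of the 8 members were thus near those of all genes, while Camk2a and Camk2b passed with none of the readers when all 12 libraries were fitted together. Enriched means an adjusted p of at most 0.05 and a log2 fold change over input of at least 0.32, by edgeR's quasi-likelihood test in that fit with Benjamini-Hochberg adjustment over all 17126 genes. Depleted is the same size downwards. The median log2 fold change of the 8 members was -0.30, -0.28 and -0.05 in the YTHDF1, YTHDF2 and YTHDF3 RIP, beside 0.02, 0.02 and 0.05 for all genes tested.

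**Figure D1:**
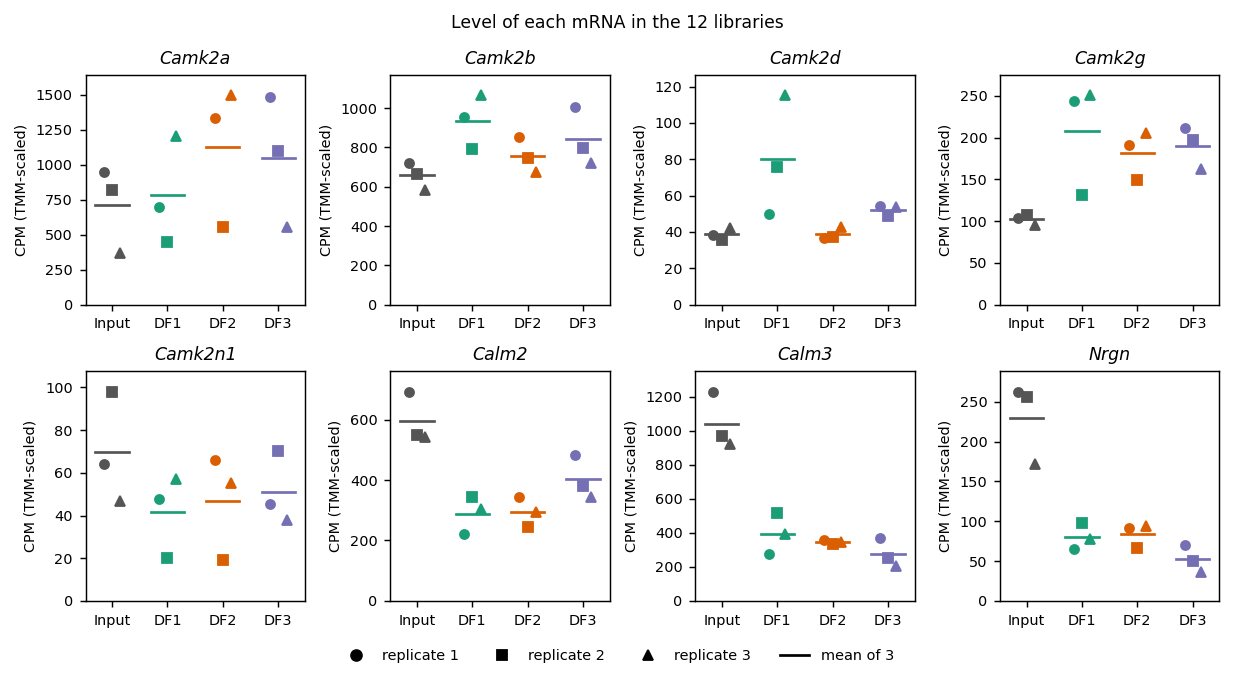
Level of each of the 8 mRNAs in TMM-scaled CPM (y axis) in each library of Input and of the YTHDF1 (DF1), YTHDF2 (DF2) and YTHDF3 (DF3) RIPs, where the symbol gives the replicate number and the line the mean of 3. Camk2g lies above input in all 9 RIP libraries and Calm2, Calm3 and Nrgn lie below it in all 9. With DF1, DF2 and DF3, 27.9%, 25.3% and 26.6% of all genes lie wholly above Input and 28.0%, 27.5% and 29.1% wholly below. Camk2a spans from 369.7 to 947 CPM within Input alone.

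Camk2g (chromosome 14, 20734875 to 20794088, minus strand) encodes the γ subunit, which is expressed in many tissues and carries calmodulin towards the nucleus in neurons. Its level was 104, 108 and 94.8 CPM in the 3 Input libraries, 244, 131 and 251 with YTHDF1, 191, 149 and 206 with YTHDF2 and 212, 197 and 162 with YTHDF3. Every RIP library was above every Input library, which held for 27.9%, 25.3% and 26.6% of all genes. The log2 fold change was 1.03 ± 0.24 (SE, adjusted p = 0.00426, edgeR) with YTHDF1, 0.83 ± 0.24 (adjusted p = 0.0209) with YTHDF2 and 0.90 ± 0.24 (adjusted p = 0.0123) with YTHDF3. Without Input replicate 1 or 3, or without YTHDF2 RIP replicate 1 or 3, the YTHDF2 value lay between 0.74 and 0.85 with adjusted p between 0.0541 and 0.0799, so that call rests on each of those 4 libraries. A direct test found no difference between RIPs in Camk2g, with 95% intervals of -0.33 to 0.73 for YTHDF1 over YTHDF2, -0.40 to 0.66 for YTHDF1 over YTHDF3 and -0.59 to 0.47 for YTHDF2 over YTHDF3.

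Camk2d (chromosome 3, 126596302 to 126846326, plus strand) encodes the δ subunit, the main CaMKII of heart muscle. It was the least abundant kinase mRNA here, at 38.1, 35.7 and 42.0 CPM in Input. The YTHDF1 RIP held 49.7, 75.5 and 115.1 CPM, the YTHDF2 RIP 36.7, 37.3 and 42.7, and the YTHDF3 RIP 54.4, 49.0 and 53.5. The YTHDF1 libraries spread widely but all lay above Input, as did those of 27.9% of all genes. Of the 3 YTHDF2 libraries, 2 lay within the range of Input and 1 just above it. The YTHDF3 libraries lay just above Input, as did those of 26.6% of all genes. On the log2 scale the fold change was 1.06 ± 0.25 (adjusted p = 0.00406, edgeR) with YTHDF1, 0.01 ± 0.25 (adjusted p = 0.973) with YTHDF2 and 0.44 ± 0.25 (adjusted p = 0.182) with YTHDF3.

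Camk2d was also the 1 member that passed the test between 2 RIPs, which asked for a 2-fold difference. It was higher in the YTHDF1 than in the YTHDF2 RIP by 1.04 ± 0.25 on the log2 scale (adjusted p = 0.00932, edgeR), where 11.4% of all genes were called in that direction and 20.4% had every YTHDF1 library above every YTHDF2 library. The difference was close to the 2-fold limit, and without YTHDF1 RIP replicate 3, the library with 115.1 CPM, it was 0.69 (adjusted p = 0.0309) and no longer 2-fold. The YTHDF1 over YTHDF3 difference was 0.62 ± 0.25 (95% interval 0.08 to 1.16, adjusted p = 0.0959), and YTHDF2 lay below YTHDF3 by an estimated 0.43 on the log2 scale (interval -0.97 to 0.12, adjusted p = 0.314), with every YTHDF2 library below every YTHDF3 library, as for 14.0% of all genes. No member was higher in the YTHDF2 than in the YTHDF1 RIP, where 6.10% of genes were. None was called between YTHDF1 and YTHDF3 (10.8% of genes higher with YTHDF1 and 3.63% with YTHDF3) or between YTHDF2 and YTHDF3 (3.95% higher with YTHDF2 and 1.16% with YTHDF3), by edgeR or by DESeq2. At an unadjusted p under 0.05 and with no fold limit, 2 of the 8 (Camk2d and Nrgn) differed between YTHDF1 and YTHDF3 in edgeR's test and 1 (Nrgn) between YTHDF2 and YTHDF3, as did 35.0% and 25.1% of all genes in either direction.

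Camk2b (chromosome 11, 5969644 to 6066362, minus strand) encodes the β subunit, which also binds actin filaments in spines. Input held 723, 667 and 584 CPM, the YTHDF1 RIP 954, 792 and 1065, the YTHDF2 RIP 852, 746 and 674, and the YTHDF3 RIP 1006, 796 and 722. The YTHDF1 libraries lay above all Input libraries, as did those of 27.9% of all genes. Those of the other RIPs overlapped with Input. The log2 fold change was 0.51 ± 0.20 with YTHDF1 (adjusted p = 0.0509, edgeR), 0.20 ± 0.20 with YTHDF2 (adjusted p = 0.461) and 0.35 ± 0.20 with YTHDF3 (adjusted p = 0.187). None passed in this fit, and the YTHDF1 value passed with DESeq2 (adjusted p = 0.0294) and without YTHDF1 RIP replicate 2 (adjusted p = 0.0358).

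Camk2a (chromosome 18, 60925618 to 60988152, plus strand) encodes the α subunit, the main forebrain form. Its level varied more between libraries of 1 group than between groups. Input held 947, 821 and 369.7 CPM, the YTHDF1 RIP 695, 447 and 1203, the YTHDF2 RIP 1335, 553 and 1494, and the YTHDF3 RIP 1480.1, 1096 and 556. All 3 RIPs overlapped with Input. Log2 fold changes were 0.13 ± 0.51 (adjusted p = 0.843, edgeR) with YTHDF1, 0.66 ± 0.51 (adjusted p = 0.336) with YTHDF2 and 0.55 ± 0.51 (adjusted p = 0.419) with YTHDF3. The 95% intervals reached from -0.97 to 1.24, from -0.45 to 1.77 and from -0.56 to 1.66, so in this fit neither a 2-fold enrichment nor a moderate depletion could be told from no change. The YTHDF3 call differs when libraries are paired by number, as given with the pairs. The YTHDF1 value turned to -0.28 without Input replicate 3 and to -0.32 without YTHDF1 RIP replicate 3.

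The spread of Camk2a was set beside sums of cell type markers. Its lowest library in each group was Input replicate 3, YTHDF1 RIP replicate 2, YTHDF2 RIP replicate 2 and YTHDF3 RIP replicate 3. In all 4 groups the same library had the lowest interneuron marker sum and the highest astrocyte marker sum of its group. Those astrocyte sums were 2638, 1193, 1311 and 1485 CPM, and those interneuron sums were 167, 183, 108 and 169 CPM. Single markers did not all follow. Aldoc was not highest in the lowest Camk2a library of any group, as with 220 CPM in Input replicate 3 beside 418 in replicate 2. In YTHDF2 RIP replicate 2 Aldoc was lowest of its group, at 73.9 CPM beside 112 and 190. The interneuron marker Dlx1 was highest there, at 14.5 CPM. YTHDF2 RIP replicate 3 had the highest Camk2a of its group with an astrocyte sum of 1149 CPM, beside 656 in replicate 1. The excitatory neuron markers summed to 331 CPM in Input replicate 3 and to 521 and 746 CPM in the other Input libraries. They were also lowest in YTHDF2 RIP replicate 2, at 187 CPM beside 262 and 384 in that group. In YTHDF3 RIP replicate 3 they were lowest too, at 224 CPM beside 258 and 380. They did not follow Camk2a in the YTHDF1 RIP, where replicate 2 had 352 CPM beside 344 in replicate 1 and 471 in replicate 3. The neuron markers there summed to 1227, 719.8 and 1308 CPM in the same order. The part of these markers in the Camk2a values was not tested.

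**Figure D2:**
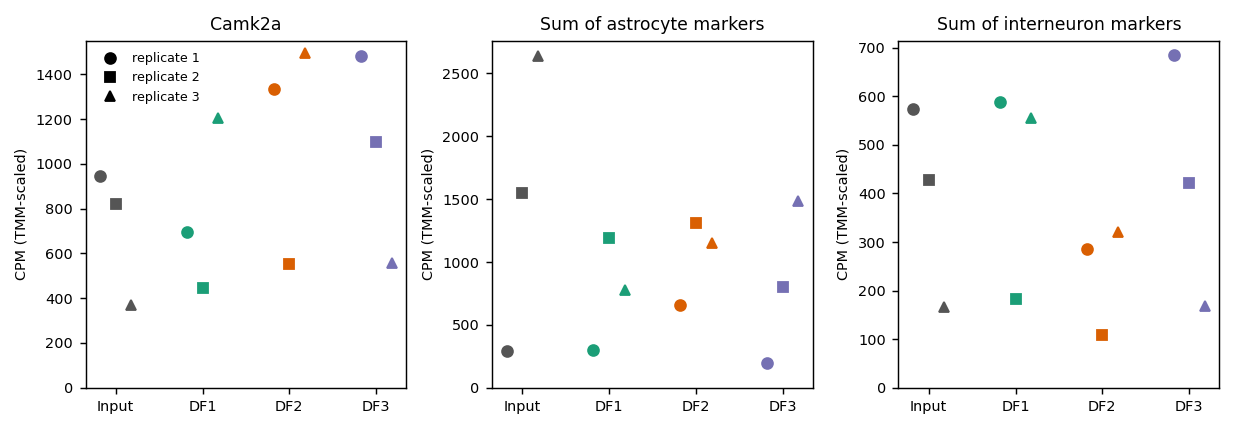
Camk2a level (left) and the summed level of 5 astrocyte markers (middle) and 4 interneuron markers (right) in each library, all in TMM-scaled CPM, with the symbol giving the replicate number. In each group the library with the lowest Camk2a has the highest astrocyte sum and the lowest interneuron sum, as in Input replicate 3 with 369.7, 2638 and 167 CPM.

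Camk2n1 (chromosome 4, 138454314 to 138460123, plus strand) encodes a small protein that binds and inhibits active CaMKII. It held 64.2, 97.9 and 46.7 CPM in Input, 47.8, 20.2 and 57.1 with YTHDF1, 65.8, 19.1 and 55.4 with YTHDF2 and 45.2, 70.1 and 37.7 with YTHDF3. The lowest library of each group was the same as for Camk2a, and all 3 RIPs overlapped with Input. The log2 fold change was -0.74 ± 0.48 (adjusted p = 0.216, edgeR), -0.57 ± 0.48 (adjusted p = 0.380) and -0.45 ± 0.48 (adjusted p = 0.487) in the YTHDF1, YTHDF2 and YTHDF3 RIP. It held the most GGACT matches of the 8 and was not enriched in any RIP.

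Calm3 (chromosome 7, 16915379 to 16924114, minus strand) encodes calmodulin, the same protein as Calm2. Input held 1228, 969.6 and 923 CPM. The YTHDF1 RIP held 274, 519 and 396, the YTHDF2 RIP 356, 336 and 344, and the YTHDF3 RIP 369, 249.6 and 208. All 9 RIP libraries were below all Input libraries, which held for 28.0%, 27.5% and 29.1% of all genes in the YTHDF1, YTHDF2 and YTHDF3 RIP. In log2 terms the change from Input was -1.39 ± 0.27 (adjusted p = 0.00129, edgeR) with YTHDF1, -1.59 ± 0.27 (adjusted p = 0.00136) with YTHDF2 and -1.92 ± 0.28 (adjusted p = 0.000278) with YTHDF3.

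Nrgn (chromosome 9, 37544492 to 37552904, minus strand), the calmodulin store of the spine, had the lowest fold changes of the 8 in the YTHDF1 and YTHDF3 RIPs. Its level was 262, 256 and 172 CPM in Input, 65.5, 97.8 and 77.5 with YTHDF1, 91.9, 66.7 and 94.2 with YTHDF2 and 70.6, 49.7 and 36.2 with YTHDF3. No RIP library reached the lowest Input library. Of all genes, 28.0%, 27.5% and 29.1% lay wholly below Input with YTHDF1, YTHDF2 and YTHDF3. The log2 fold change was -1.52 ± 0.28 (adjusted p = 0.000828, edgeR), -1.45 ± 0.28 (adjusted p = 0.00235) and -2.14 ± 0.28 (adjusted p = 0.000162) in the YTHDF1, YTHDF2 and YTHDF3 RIP. On the linear scale the YTHDF3 RIP held 0.227 of the input level. The YTHDF2 over YTHDF3 difference was 0.69 ± 0.27 (95% interval 0.10 to 1.29, adjusted p = 0.139), and YTHDF1 over YTHDF3 was 0.62 ± 0.27 (interval 0.03 to 1.22, adjusted p = 0.127), neither of which passed.

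Calm2 (chromosome 17, 87433412 to 87446935, minus strand) followed Calm3 in the YTHDF1 and YTHDF2 RIPs and less so in the YTHDF3 RIP. Input held 692, 550.3 and 543 CPM, the YTHDF1 RIP 219.8, 343 and 304, the YTHDF2 RIP 344, 245 and 296, and the YTHDF3 RIP 484, 381 and 343. All 9 RIP libraries were again below Input, which held for 28.0%, 27.5% and 29.1% of all genes in the YTHDF1, YTHDF2 and YTHDF3 RIP. The log2 fold change was -1.04 ± 0.23 (adjusted p = 0.00252, edgeR) in the YTHDF1 RIP and -1.01 ± 0.23 (adjusted p = 0.00550) in the YTHDF2 RIP. It was -0.56 ± 0.22 in the YTHDF3 RIP and did not pass (adjusted p = 0.0667). In the direct test YTHDF1 differed from YTHDF3 by -0.48 ± 0.22 (95% interval -0.97 to 0.01, adjusted p = 0.153), with every YTHDF1 library below every YTHDF3 library, as for 12.2% of all genes.

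**Figure D3:**
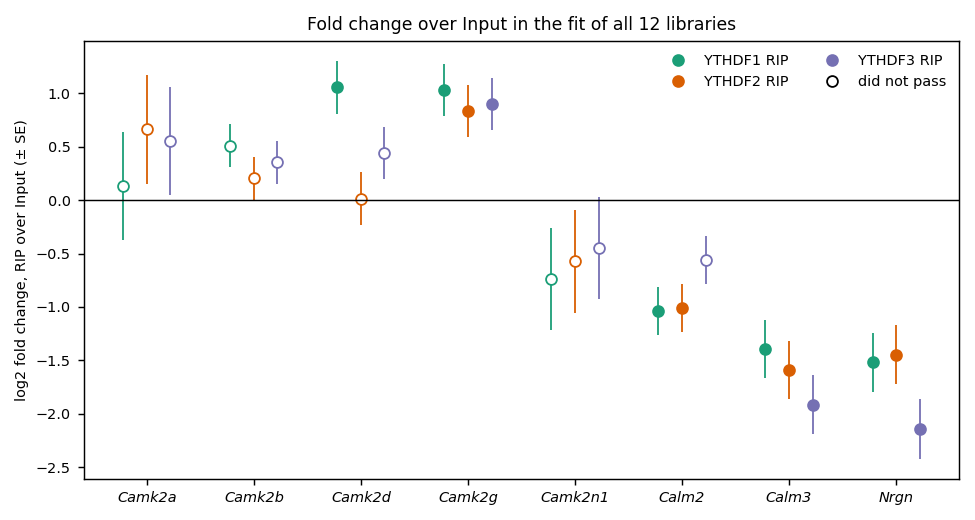
Log2 fold change of each RIP over Input (y axis, bars ± SE) for the 8 mRNAs in the fit of all 12 libraries, with filled circles for members past the thresholds and open circles for the others. Camk2g passes upwards in all 3 RIPs, Calm3 and Nrgn pass downwards in all 3, and the bars of Camk2a and Camk2n1 are the longest, at 0.51 and 0.48.

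The YTHDF3 and Input libraries of the same replicate number deviated together from their group means, and could be compared within numbers. Camk2a was 1.56, 1.34 and 1.50 times its own input in the 3 pairs, although the levels themselves ran from 556 to 1480.1 CPM. Camk2b was 1.39, 1.19 and 1.24 times its input, Camk2d 1.43, 1.37 and 1.27 times, and Camk2g 2.04, 1.83 and 1.71 times. The 4 kinase mRNAs were thus above their own input in all 3 pairs, as were 41.9% of all genes. Camk2n1 was 0.704, 0.715 and 0.808 times its input, Calm2 0.70, 0.693 and 0.632 times, Calm3 0.301, 0.257 and 0.225 times, and Nrgn 0.269, 0.195 and 0.210 times. These 4 were below their own input in all 3 pairs, as were 39.5% of all genes.

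With the replicate number as a block in a fit of the YTHDF3 and Input libraries alone, all 8 members passed in edgeR's test, 4 up and 4 down, where 36.3% of all genes were enriched and 32.2% depleted. Camk2a passed with 0.61 ± 0.10 (adjusted p = 1.38e-05, edgeR), Camk2b with 0.40 ± 0.10 (adjusted p = 0.000966) and Camk2d with 0.50 ± 0.10 (adjusted p = 6.32e-05). Camk2n1 passed downwards with -0.38 ± 0.10 (adjusted p = 0.00162) and Calm2 with -0.51 ± 0.10 (adjusted p = 6.70e-05). Calm3, at -1.89 ± 0.10, and Nrgn, at -2.11 ± 0.10, kept nearly the size they had without the block. Leaving out 1 pair at a time left 3 or 4 members enriched and 4 depleted, and Camk2b, at 0.28 without pair 1, was the member that then missed the fold limit of 0.32. For a single gene, 3 pairs cannot give an exact permutation p below 0.25. Same-numbered libraries of the YTHDF1 or YTHDF2 RIP and Input did not deviate together, so their values within numbers are not given, and the blocked fits of these RIPs stand among the alternatives, where the 2 enriched members with YTHDF1 became 0.

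**Figure D4:**
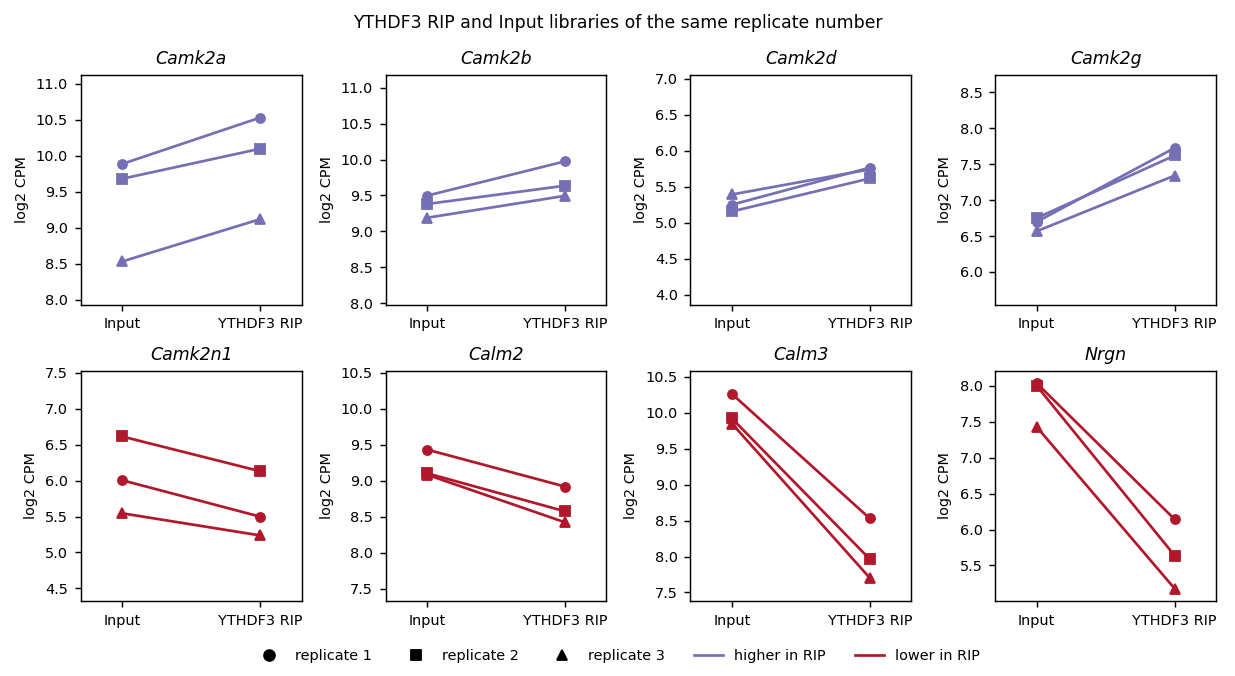
Log2 CPM (y axis, the same span in every panel) of the 8 mRNAs in Input and in the YTHDF3 RIP, with lines joining libraries of the same replicate number. All 3 lines rise for Camk2a, Camk2b, Camk2d and Camk2g and all 3 fall for Camk2n1, Calm2, Calm3 and Nrgn, with Nrgn at 0.195 to 0.269 of its input.

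Levels of different genes were compared per length, in CPM per kb of exonic length. In Input the order was Calm3 at 429 ± 67.9 (SD, n = 3), Calm2 at 406 ± 57.2, Nrgn at 158 ± 34.6, Camk2a at 95.4 ± 40.7, Camk2b at 72.1 ± 7.64, Camk2g at 15.9 ± 1.03, Camk2n1 at 15.7 ± 5.86 and Camk2d at 1.71 ± 0.142. Among neighbours in that order, the ranges of Calm3 and Calm2, of Nrgn and Camk2a, of Camk2a and Camk2b and of Camk2g and Camk2n1 overlapped. In the YTHDF3 RIP, Calm2 came first at 275 ± 49.8, followed by Camk2a at 139.9 ± 62.2 and Calm3 at 114 ± 34.6, while Nrgn stood below Camk2b at 35.9 ± 11.9, with a range that overlapped that of Camk2g at 29.7 ± 3.97. Calm2 also came first in the YTHDF1 and YTHDF2 RIPs, at 197 ± 42.9 and 201 ± 33.5, and Camk2d was last in every group. The order depends on the length used. Per kb of the principal transcript, Calm2 came first in all 4 groups, at 494 ± 69.6 in Input before Calm3 at 454 ± 71.9, and Camk2b at 164 ± 17.3 stood before Nrgn at 158 ± 34.6 and Camk2a at 143 ± 61.1. On that scale Camk2d, at 14.5 ± 5.96, was above Camk2n1, at 9.39 ± 4.32, in the YTHDF1 RIP and last in the other groups.

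The balance of Calm2 and Calm3 shifted in the RIPs. Per length, Calm2 made up 48.2%, 48.4% and 49.3% of the sum of Calm2 and Calm3 in the Input libraries. It made up 57.0%, 52.2% and 56.0% with YTHDF1, 61.5%, 54.7% and 58.7% with YTHDF2 and 68.4%, 71.6% and 73.1% with YTHDF3. No RIP library overlapped with Input, and the YTHDF3 libraries lay above all others. The means were 48.6% ± 0.577 (SD, n = 3) in Input and 55.1% ± 2.55, 58.3% ± 3.42 and 71.1% ± 2.42 in the YTHDF1, YTHDF2 and YTHDF3 RIP, each with a two-sided exact permutation p of 0.1 against Input, the smallest that 3 against 3 can give. The share does not depend on the scaling between libraries, and per length of the principal transcript the means were 52.1%, 58.5%, 61.6% and 73.8% in the same order. The coding sequences of Calm2 and Calm3 are 450 bases each, encode the same protein and are 82.7% identical, with a longest shared run of 17 bases against reads of 50 bases.

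**Figure D5:**
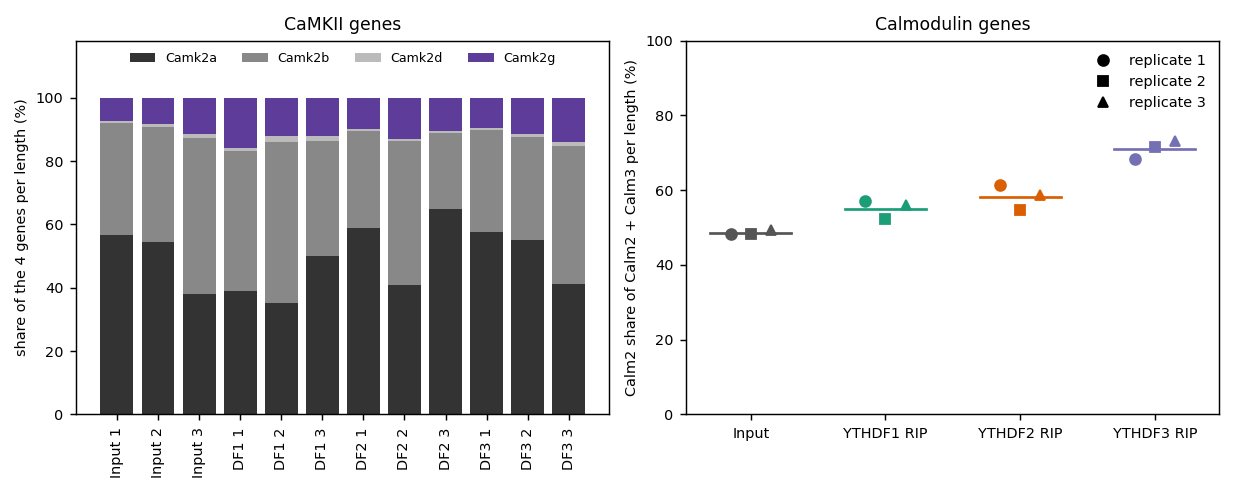
Left, share (y axis, percent, per exonic length) of each of the 4 CaMKII genes in their sum, as stacked bars for each of the 12 libraries, with DF1, DF2 and DF3 for the RIPs. Right, share of Calm2 in Calm2 plus Calm3 in each library with the mean of 3 as a line, which is 48.6% in Input and 71.1% in the YTHDF3 RIP.

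Among the 4 kinase genes, Camk2a and Camk2b together made up most of the sum in every library. The γ gene made up 7.24%, 8.35% and 11.4% in Input and 16.0%, 11.99% and 12.1% in the YTHDF1 RIP, which did not overlap (means 8.99% and 13.4%, two-sided exact permutation p = 0.1, the smallest possible). It made up 11.1% ± 1.62 with YTHDF2 and 11.7% ± 2.19 with YTHDF3, both overlapping with Input (exact permutation p = 0.3 and 0.2). The share of Camk2a was 49.8% ± 10.2 in Input, 41.4% ± 7.71 with YTHDF1, 55.0% ± 12.5 with YTHDF2 and 51.2% ± 8.89 with YTHDF3, and every RIP overlapped with Input (exact permutation p = 0.3, 0.5 and 0.6). The δ gene had the smallest share in every library, from 0.537% in a YTHDF2 library to 1.97% in a YTHDF1 library, with means of 0.690% ± 0.201 with YTHDF2 and 1.49% ± 0.526 with YTHDF1. Divided by the 5524 bases of its principal transcript in place of its exonic length, and the other genes likewise, these means were 1.55% and 3.19%. These are 12 tests of the kinase shares and 3 of the calmodulin share, and with a smallest possible p of 0.1 none could pass after adjustment.

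The direction of the members ran with the exonic length of their genes. By the length of the principal transcript the kinase mRNAs were also the longer, at 5524 bases for Camk2d, 4970 for Camk2a, 4023 for Camk2b and 3703 for Camk2g. Calm3 has 2290 bases on that scale, Nrgn 1453 and Calm2 1205. Only Camk2n1 broke that order, since its 4444 bases lie above Camk2b and Camk2g. Across all 17126 genes, the log2 ratio of RIP over Input rose with exonic length, with Spearman's rho of 0.478, 0.381 and 0.520 in the YTHDF1, YTHDF2 and YTHDF3 RIP, a description across genes, which are not independent. The kinase genes are long, with exonic lengths of 22493 bases for Camk2d, 9125 for Camk2b, 7465 for Camk2a and 6401 for Camk2g, beside a median of 3885.5 over all genes. Camk2n1 has 4444, Calm3 2423, Calm2 1467 and Nrgn 1453. Camk2n1 is thus above that median, with log2 fold changes of -0.74, -0.57 and -0.45 that did not pass. The 1443 protein-coding genes of over 10000 bases had a median log2 fold change of 1.18, 0.48 and 0.74 in the YTHDF1, YTHDF2 and YTHDF3 RIP, beside 1.06, 0.01 and 0.44 for Camk2d. The 840 of up to 1500 bases had medians of -1.38, -0.97 and -1.67, beside -1.04, -1.01 and -0.56 for Calm2 and -1.52, -1.45 and -2.14 for Nrgn. The 1643 of 1500 to 2500 bases had medians of -0.70, -0.45 and -0.69, beside -1.39, -1.59 and -1.92 for Calm3.

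With the trend of each library on length removed, none of the 8 was enriched in any RIP at the threshold. Camk2g remained the highest of the kinase mRNAs at 0.59 ± 0.23 (adjusted p = 0.0541, edgeR), 0.62 ± 0.23 (adjusted p = 0.0625) and 0.56 ± 0.23 (adjusted p = 0.0847) in the YTHDF1, YTHDF2 and YTHDF3 RIP. Camk2d turned to -0.69 ± 0.20 in the YTHDF1 RIP (adjusted p = 0.0128) and its YTHDF1 over YTHDF2 difference to -0.16, with the trend read at its exonic length of 22493 bases, where its principal transcript has 5524. Calm3 stayed depleted at -1.05 ± 0.25 (adjusted p = 0.00537), -1.34 ± 0.26 (adjusted p = 0.00290) and -1.59 ± 0.26 (adjusted p = 0.000857), and Nrgn at -0.85 ± 0.27 (adjusted p = 0.0216), -0.91 ± 0.27 (adjusted p = 0.0245) and -1.46 ± 0.27 (adjusted p = 0.00205). Calm2 was at -0.37 ± 0.21, -0.48 ± 0.21 and 0.12 ± 0.21 and did not pass in any RIP (adjusted p = 0.181, 0.115 and 0.70). In the paired YTHDF3 fit with length removed, Camk2g stayed enriched at 0.61 ± 0.09 (adjusted p = 1.17e-06) and Camk2n1, Calm3 and Nrgn depleted, Camk2d joined the depleted at -0.37 ± 0.10 (adjusted p = 0.00147), and Camk2a, Camk2b and Calm2 did not pass.

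Other genes of calcium/calmodulin signalling were taken as 4 lists of 41 genes in all, every one of which passed the filter. With YTHDF1, 20 of the 41 were enriched and 7 depleted, with YTHDF2 6 and 8, and with YTHDF3 9 and 5, beside the all-gene shares of 27.2% and 25.8%, 15.7% and 19.0%, and 16.4% and 23.0%. With the length trend removed the counts were 8 and 8, 4 and 10, and 2 and 3, beside 23.2% and 23.9%, 14.5% and 15.7%, and 13.3% and 18.7% of all genes. The median log2 fold change of the 41 was 0.38, 0.00 and 0.21. In the paired YTHDF3 fit the counts by list were higher, as they were for all genes, at 36.3% enriched and 32.2% depleted.

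Of the 12 anchors and substrates of CaMKII, 10 were enriched with YTHDF1, 3 with YTHDF2 and 5 with YTHDF3, and none was depleted, where 27.2%, 15.7% and 16.4% of all genes were enriched. With the length trend removed, 4, 3 and 2 were enriched and 1, 2 and 1 depleted, where 23.2%, 14.5% and 13.3% of all genes were enriched. Grin2b, the NMDA receptor subunit that docks active CaMKII, rose from a mean of 1121 CPM in Input to 6329 in the YTHDF1 RIP (log2 fold change 2.50 ± 0.34, adjusted p = 0.000124, edgeR). Lrrc7, the scaffold densin, rose by 1.78 ± 0.34 in the YTHDF1 RIP. Shank3, a postsynaptic scaffold, rose by 1.46 ± 0.33 in the YTHDF2 RIP and by 1.08 ± 0.32 in the YTHDF3 RIP. Ppp1r9b, the spine protein spinophilin, rose by 0.995 ± 0.26 in the YTHDF2 RIP. With the block, 8 of the 12 were enriched in the YTHDF3 RIP and 1, the scaffold Dlg4 at -0.87 ± 0.10, was depleted. In that fit 36.3% of all genes were enriched and 32.2% depleted.

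Of the 11 other calmodulin-dependent kinases and CaMKII inhibitors, 3 were enriched and 2 depleted with YTHDF1, 2 and 3 with YTHDF2, and 1 and 3 with YTHDF3. The all-gene shares were 27.2% and 25.8%, 15.7% and 19.0%, and 16.4% and 23.0%. With the length trend removed the counts were 3 and 3, 1 and 3, and 0 and 1, beside 23.2% and 23.9%, 14.5% and 15.7%, and 13.3% and 18.7%. Dapk1, a death-associated kinase, rose in all 3, by 1.20 ± 0.17, 0.89 ± 0.17 and 0.94 ± 0.17. Camk2n2, the second CaMKII inhibitor, fell in all 3, with log2 fold changes of -1.43 ± 0.38, -1.65 ± 0.39 and -1.04 ± 0.38 (adjusted p = 0.00847, 0.00712 and 0.0470, edgeR). Camk1d was enriched in the YTHDF1 RIP at 1.70 ± 0.27 (adjusted p = 0.000312). Camk1 fell in the YTHDF1 and YTHDF3 RIPs, with -0.99 ± 0.19 and -0.998 ± 0.19. Camk4, a nuclear kinase that phosphorylates CREB, fell in the YTHDF2 RIP (-0.96 ± 0.30), and Camkk2, an upstream kinase, rose there (0.57 ± 0.20). The paired YTHDF3 counts were 4 enriched and 5 depleted, beside 36.3% and 32.2% of all genes.

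Of the 6 genes in the list of calmodulin-related small proteins, 1 was enriched and 3 depleted in the YTHDF1 RIP. In each of the YTHDF2 and YTHDF3 RIPs 2 were depleted. The all-gene shares were 27.2% and 25.8%, 15.7% and 19.0%, and 16.4% and 23.0%. With the length trend removed the counts were 1 and 1, 0 and 1, and 0 and 1, beside 23.2% and 23.9%, 14.5% and 15.7%, and 13.3% and 18.7%. Pcp4l1, a relative of the small calmodulin-binding protein PCP4, fell in all 3 but was scarce, with a mean of 3.38 CPM in Input. Marcks, a membrane protein that sheds from the membrane when calmodulin binds it, rose by 2.36 ± 0.46 in the YTHDF1 RIP. The paired YTHDF3 counts were 1 enriched and 5 depleted, beside 36.3% and 32.2% of all genes.

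Of the 12 genes of calcineurin and other calmodulin-regulated enzymes, 6 were enriched and 2 depleted with YTHDF1. The counts were 1 and 3 with YTHDF2, and 3 and 0 with YTHDF3. The all-gene shares were 27.2% and 25.8%, 15.7% and 19.0%, and 16.4% and 23.0%. With the length trend removed, none was enriched in any RIP, where 23.2%, 14.5% and 13.3% of all genes were. Depleted then were 3, 4 and 0, beside 23.9%, 15.7% and 18.7% of all genes. The paired YTHDF3 fit had 6 enriched and 3 depleted, beside 36.3% and 32.2% of all genes. The calmodulin-stimulated adenylyl cyclases led this list. Adcy1 rose by 1.50 ± 0.47 in the YTHDF1 and by 1.39 ± 0.47 in the YTHDF3 RIP, and Adcy8 by 1.32 ± 0.38 in the YTHDF1 and by 1.17 ± 0.38 in the YTHDF2 RIP. Nos1, the neuronal nitric oxide synthase, rose by 0.96 ± 0.33 in the YTHDF3 RIP. Rcan2, a regulator of calcineurin, fell by 2.13 ± 0.57 in the YTHDF1 RIP and by 2.41 ± 0.59 in the YTHDF2 RIP. Of the calcineurin subunits, the catalytic Ppp3cc, at a mean of 11.6 CPM in Input, fell by 0.90 ± 0.25 in the YTHDF1 RIP. The regulatory Ppp3r1 fell by 1.32 ± 0.42 in the YTHDF2 RIP. Ppp3ca went the other way with YTHDF1 and YTHDF3, with means of 434 CPM in Input and 728, 317 and 666 with YTHDF1, YTHDF2 and YTHDF3. For Ppp3cb the means were 178 CPM in Input and 136, 83.9 and 180 in the same order.

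Across the 12 libraries, the members fell into patterns that can be described by their correlations of log2 CPM, which share the libraries and the group differences above. Calm3 and Nrgn had the closest pattern of any 2 members (Pearson r = 0.968), Calm2 had r = 0.770 with Calm3, and Camk2g had r = 0.785 with Camk2b and -0.793 with Calm3. Among 10900 genes with a symbol and a mean of at least 100 normalized reads, the 3 most like Camk2a were Cpeb1 (r = 0.937), Iqsec3 (0.936) and Cnnm1 (0.935). The closest to Nrgn were Atp6v0c (0.985), its pseudogene Atp6v0c-ps2 (0.982) and Cck (0.978), and the closest to Calm3 were Tle5, Ctxn1 and Vapa (0.985, 0.985 and 0.984). For Calm2 they were Sugt1, Reep5 and the pseudogene Gm7308 (0.981, 0.976 and 0.976), and for Camk2g Lpin2, Arhgap39 and D5Ertd579e (0.985, 0.984 and 0.982). Camk2b was closest to Akap17b, Ptpro and Sox1ot (0.971, 0.935 and 0.935), Camk2d to Robo1, D630045J12Rik and Ube4a (0.950, 0.946 and 0.940), and Camk2n1 to Dpy19l3, Gm27646 and Txndc16 (0.909, 0.891 and 0.884).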

How the data were processed

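RNA of 12 libraries (3 of input and 3 for each reader's RIP) was sequenced as pairs of 50-base reads from a stranded total-RNA kit. The deposited values are whole-number counts of reads per gene, which the authors made with UMI-tools 1.1.1, cutadapt 3.4, STAR 2.7.7a and featureCounts 2.0.1, per the submitters' processing notes, on mm10 (GRCm38) with Ensembl release 97. Per the file headers, strand setting 2 was used, every alignment of a read was counted and a read over several genes counted for each, so genes with pseudogene copies or overlapping neighbours can share reads. The authors' tables also hold the exonic length, used here per kb, and gene symbols, used here for names (55383 genes). Their DESeq2 fold changes and p-values were not used. No per-sample column was left out. Totals were 6020072 to 38909592 reads, and the biological coefficient of variation was 0.323.

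Counts were tested with edgeR 4.0.16 (TMM scaling, quasi-likelihood F test, R 4.3.3) after a filter of a mean of at least 10 normalized reads, in 1 fit of the 4 groups without a block. Calls used an adjusted p of at most 0.05 and an absolute log2 fold change of 0.32 against Input or a fold of 2 between RIPs. CPM is TMM-scaled, and log2 CPM used a prior count of 2. Single values were compared by exact permutation (scipy 1.17.1). The scripts were tested on simulated counts. Alternatives were DESeq2 1.42.0 and its size factors, library size alone, TMM over protein-coding genes, no filter, a minimum mean of 50, fits of 2 groups, a replicate block, a loess trend on exonic length removed (span 0.3) and each library left out. The block with 2 groups and length, the paired YTHDF3 fit without each pair, the principal transcript's length and the pathway counts with length removed were added after seeing the data.

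Replicate numbers come from the labels, and the methods describe a shared lysate. Same-numbered YTHDF3 and Input libraries deviated together (r = 0.829, 0.528 and 0.804 over all tested genes), which was taken as pairing. The members, the 41 pathway genes and the marker lists were chosen with earlier results of these data known. Named were all 8 members, from each list up to 2 called genes per direction and comparison with Input with the largest fold change, and the 3 genes most correlated with each member. Dlg4, Ppp3ca and Ppp3cb were named after their values were seen. Of the genes this rule named, 2 are not reported here. P-values measure the spread between these libraries. No protein sequence was used here.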

Additional observations from a re-analysis of the deposited data

Results flagged for a closer look

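Camk2d, the gene of the δ kinase subunit, differed between 2 RIPs in the direct test. It was higher in the YTHDF1 than in the YTHDF2 RIP by 1.04 ± 0.25 on the log2 scale (edgeR, adjusted p = 0.00932), with all 3 YTHDF1 libraries (49.7, 75.5 and 115.1 CPM) above all 3 YTHDF2 libraries (36.7, 37.3 and 42.7 CPM). Its exonic length of 22493 bases is longer than that of 99.6% of tested genes, and the difference was -0.16 once the length trend of each library was removed.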

How the results depend on the processing

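Same-numbered libraries of Input and the YTHDF1 RIP (r = 0.0907, -0.267 and -0.322) or the YTHDF2 RIP (r = 0.178, -0.323 and -0.313) did not deviate together, and none of these 6 correlated best with its own number. Replicate 2 of each correlated with an Input library of another number at r = 0.467 and 0.560. Whether these numbers follow those of Input, as a shared lysate would have them, is not known. The oligodendrocyte lineage markers summed to 18.1 CPM in Input replicate 1, beside 135 and 129 in replicates 2 and 3, and to 19.2 in YTHDF3 RIP replicate 1. No YTHDF1 library was below 161 CPM and no YTHDF2 library below 228. Which lysate each library came from was not tested. Comparisons of the YTHDF1 or YTHDF2 RIP with Input or the YTHDF3 RIP may thus set different cultures side by side. The replicate block of these RIPs, given here only, may join libraries of different lysates. Scaling by library size alone moved the all-gene median by -0.40 log2 units with YTHDF1, 0.33 with YTHDF3, -0.48 for YTHDF1 over YTHDF2, -0.73 for YTHDF1 over YTHDF3 and -0.26 for YTHDF2 over YTHDF3, and TMM over protein-coding genes moved it by -0.15 with YTHDF1. No member had under 128 reads in a library, and with 3 libraries a group the biological coefficient of variation of 0.323 limits what could be detected. Of the 12 calls of a member against Input, 197 of 225 values under alternatives kept direction and call, 25 kept direction alone and 3 reversed, all Camk2d with YTHDF1 once length was removed. The enriched count with YTHDF1 fell from 2 to 0 in a fit of 2 groups with the replicate block and in each fit with length removed, and with YTHDF2 from 1 to 0 with no filter and with length removed. With YTHDF3 it was 3 by library size alone, 2 with 2 groups and no block, 4 with 2 groups and the replicate block (4 depleted, and 3 or 4 and 4 without 1 pair) and 0 with length removed. With 2 groups, length removed and the replicate block, depleted counts were 0, 1 and 4 with YTHDF1, YTHDF2 and YTHDF3. Without 1 library at a time, the enriched counts ran from 2 to 3, 0 to 1 (0 without Input replicate 1 or 3 or YTHDF2 RIP replicate 1 or 3) and 1 to 1, and the YTHDF1 over YTHDF2 count from 0 to 1 (0 without YTHDF1 RIP replicate 3). That count was also 0 by library size alone, TMM over protein-coding genes, a minimum mean of 50, 2 groups with or without the replicate block, and length removed. By library size alone 1 member, Calm2, was higher with YTHDF3 than with YTHDF1 (-1.22). The counts of all genes of which 1 direction or both moved by over 1.5 times, or whose split moved by over 10 percentage points, were, by library size alone, 3087 enriched and 6219 depleted with YTHDF1 (4662 and 4414 in the reported fit), 4822 and 3031 with YTHDF3 (2817 and 3940), 1068 and 2796 for YTHDF1 over YTHDF2 (1949 and 1045), 767 and 3440 for YTHDF1 over YTHDF3 (1858 and 621) and 482 and 718 for YTHDF2 over YTHDF3 (676 and 198). With 2 groups and the replicate block they were 2393 enriched with YTHDF1, 6212 with YTHDF3, and 317 and 102 for YTHDF1 over YTHDF3 and 294 and 99 for YTHDF2 over YTHDF3. With length removed as well they were 1752 and 2578 with YTHDF1, 1625 and 2124 with YTHDF2 and 5799 enriched with YTHDF3. With 2 groups and no block they were 893 higher with YTHDF1 than with YTHDF3 and 430 higher with YTHDF3 than with YTHDF2, the latter 349 with DESeq2. With no filter they were 1174 higher with YTHDF3 than with YTHDF1 and 1043 and 769 for YTHDF2 over YTHDF3. Without 1 library at a time they ran from 786 to 1966 higher with YTHDF2 than with YTHDF1, from 1188 to 2027 and 484 to 1015 for YTHDF1 over YTHDF3, and from 110 to 361 and 69 to 150 for YTHDF2 over YTHDF3.

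These log2 fold changes had the opposite sign to the reported value, and the cause was not tested. By library size alone they were Camk2a -0.26 for YTHDF1, Camk2b -0.17, Camk2g -0.25 and Calm3 -0.30 for YTHDF1 over YTHDF2, Camk2b -0.56, Camk2d -0.15, Camk2g -0.57, Calm3 -0.21 and Nrgn -0.099 for YTHDF1 over YTHDF3. The other was Camk2a -0.14 for YTHDF2 over YTHDF3. With TMM over protein-coding genes they were Camk2a -0.024 for YTHDF1, Camk2d -0.048 for YTHDF2. With no filter they were Camk2d -0.088 for YTHDF2, Calm2 0.030 for YTHDF1 over YTHDF2, Camk2b -0.021 and Camk2g -0.052 for YTHDF1 over YTHDF3. The other was Camk2a -0.11 for YTHDF2 over YTHDF3. With 2 groups and no replicate block they were Camk2b -0.035 and Camk2g -0.052 for YTHDF1 over YTHDF3. With 2 groups and the replicate block they were Camk2a -0.017 for YTHDF1, Camk2b -0.040 and Camk2g -0.11 for YTHDF1 over YTHDF3, Camk2a -0.031 for YTHDF2 over YTHDF3. With length removed they were Camk2a -0.46, Camk2b -0.24 and Camk2d -0.69 for YTHDF1, Camk2b -0.10 and Camk2d -0.52 for YTHDF2, Camk2b -0.15, Camk2d -0.43 and Calm2 0.12 for YTHDF3. The others there were Camk2b -0.13, Camk2d -0.16, Camk2g -0.030, Calm2 0.11 and Nrgn 0.061 for YTHDF1 over YTHDF2, Camk2b -0.088 and Camk2d -0.25 for YTHDF1 over YTHDF3, Camk2b 0.046 and Camk2g 0.060 for YTHDF2 over YTHDF3. With length removed and the replicate block they were Camk2a -0.47, Camk2b -0.24 and Camk2d -0.70 for YTHDF1, Camk2b -0.11 and Camk2d -0.52 for YTHDF2, Camk2b -0.16, Camk2d -0.43 and Calm2 0.12 for YTHDF3. The others there were Camk2b -0.13, Camk2d -0.18, Camk2g -0.050, Calm2 0.13 and Nrgn 0.073 for YTHDF1 over YTHDF2, Camk2b -0.080, Camk2d -0.27 and Camk2g -0.0013 for YTHDF1 over YTHDF3, Camk2b 0.052 and Camk2g 0.048 for YTHDF2 over YTHDF3. With 2 groups, length removed and the replicate block they were Camk2a -0.58, Camk2b -0.35 and Camk2d -0.81 for YTHDF1, Camk2b -0.10 and Camk2d -0.52 for YTHDF2, Camk2b -0.10, Camk2d -0.37 and Calm2 0.19 for YTHDF3. Without 1 library at a time, the values that changed sign ran from lowest to highest as Camk2a -0.32 to 0.39 for YTHDF1, Camk2d -0.059 to 0.054 for YTHDF2, Calm2 -0.22 to 0.13, Nrgn -0.29 to 0.056, Camk2n1 -0.54 to 0.16, Calm3 -0.10 to 0.41 for YTHDF1 over YTHDF2, Camk2g -0.022 to 0.26 for YTHDF1 over YTHDF3, Camk2a -0.20 to 0.45, Camk2g -0.17 to 0.061, Camk2n1 -0.45 to 0.25 for YTHDF2 over YTHDF3. The kinase share, RIP minus Input in percentage points, changed sign for Camk2a with YTHDF2 -0.664 to 12.2, Camk2a with YTHDF3 -4.38 to 6.56, Camk2b with YTHDF1 -0.181 to 7.87, Camk2b with YTHDF3 -7.90 to 0.298 and Camk2d with YTHDF3 -0.232 to 0.173.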

Other observations

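Camk1d, the gene of a calmodulin-dependent kinase of another family, was enriched in the YTHDF1 RIP and depleted in the YTHDF2 RIP (log2 fold change -0.79 ± 0.26, edgeR, adjusted p = 0.0359). Its mean level was 93.3 CPM in Input and 304, 53.8 and 119.9 with YTHDF1, YTHDF2 and YTHDF3. In the direct tests the YTHDF1 RIP was above the YTHDF2 RIP by 2.50 ± 0.28 (adjusted p = 9.99e-05) and above the YTHDF3 RIP by 1.34 ± 0.26 (adjusted p = 0.00431). For Grin2b these differences were 2.58 ± 0.34 (adjusted p = 0.000268) and 1.59 ± 0.33 (adjusted p = 0.00569), and for Marcks 2.11 ± 0.45 (adjusted p = 0.00523) and 1.84 ± 0.45 (adjusted p = 0.0133). Both genes were chosen here after their values were seen, as was Camk1d. Of all genes, 11.4% and 10.8% were called higher with YTHDF1 in these 2 tests. Values with length removed are not given for these genes. No CaMKII or calmodulin mRNA of the 8 differed between RIPs by as much.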
